A study of Mus musculus with 8 samples.

Results

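The 10 genes described here encode enzymes that build purine and pyrimidine nucleotides from small precursors: Ppat, Gart, Paics, Atic, Impdh1 and Impdh2 on the purine side, and Cad, Dhodh, Umps and Ctps on the pyrimidine side. They were taken by name from a deposited table of 18473 genes, and all 10 were found. Expression was measured by RNA sequencing in 8 mouse libraries, with 4 in the EXO group and 4 in the LPS group, as their titles give them. The design text states that macrophages were treated with ADSC-Exos and then sequenced, which identifies EXO only in part: no label says whether the EXO cells also received LPS, and no dose, time, animal age or sex is given. LPS is the usual short form of lipopolysaccharide, which comes from the outer membrane of bacteria and activates macrophages, and ADSC-Exos that of vesicles secreted by adipose-derived stem cells. What both groups share is given as lung tissue and the epithelial line MLE-12, untreated cells are not analysed here, and nothing says that replicates were separate cultures, so p-values measure the spread between these libraries, which may be technical.

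Purine synthesis assembles the ring step by step on a ribose phosphate until inosine monophosphate (IMP) is reached, and IMP is then turned into adenine or guanine nucleotides. Pyrimidine synthesis makes the ring first, attaches the ribose phosphate to give uridine monophosphate, and makes cytidine triphosphate from it. Proliferating cells rely on both routes for DNA and RNA, whereas resting macrophages are known to draw largely on salvage of ready-made bases and nucleosides.

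Promoter sequence is shown for 4 of these genes because the results turn on them: Impdh2 had the highest level in EXO, Gart the highest fold change, Paics the lowest, and Ppat lies beside Paics. Each window runs from 250 bases before to 50 after the transcription start, 5′ to 3′ along the gene, from RefSeq on build GRCm38.p6, an older build than the GRCm39 named in the submitters' processing notes. The windows are chr9:108560186-108560485 (plus strand), chr16:91646923-91647222 (minus strand), chr5:76951052-76951351 (plus strand) and chr5:76951529-76951828 (minus strand). Capitals mark CACGTG, the E-box that MYC and related factors can bind, and CCGGAA or its reverse complement TTCCGG, the core recognised by ETS factors.
Impdh2: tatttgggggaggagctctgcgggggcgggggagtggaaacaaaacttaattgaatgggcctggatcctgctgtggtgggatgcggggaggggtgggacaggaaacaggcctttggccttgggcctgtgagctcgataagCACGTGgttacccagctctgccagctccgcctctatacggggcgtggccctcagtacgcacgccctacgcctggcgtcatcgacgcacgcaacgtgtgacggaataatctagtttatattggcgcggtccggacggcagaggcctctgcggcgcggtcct
Gart: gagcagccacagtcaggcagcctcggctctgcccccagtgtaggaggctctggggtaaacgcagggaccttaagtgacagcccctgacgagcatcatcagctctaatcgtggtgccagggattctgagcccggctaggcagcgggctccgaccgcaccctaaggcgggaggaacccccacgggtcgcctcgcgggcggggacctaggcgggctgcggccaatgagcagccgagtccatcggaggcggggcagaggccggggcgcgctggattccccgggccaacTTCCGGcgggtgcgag
Paics: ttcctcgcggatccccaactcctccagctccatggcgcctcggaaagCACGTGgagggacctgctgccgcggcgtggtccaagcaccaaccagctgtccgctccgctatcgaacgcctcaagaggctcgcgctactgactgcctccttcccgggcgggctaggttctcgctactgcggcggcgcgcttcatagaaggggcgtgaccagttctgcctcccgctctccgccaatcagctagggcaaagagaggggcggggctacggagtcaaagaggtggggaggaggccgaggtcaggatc
Ppat: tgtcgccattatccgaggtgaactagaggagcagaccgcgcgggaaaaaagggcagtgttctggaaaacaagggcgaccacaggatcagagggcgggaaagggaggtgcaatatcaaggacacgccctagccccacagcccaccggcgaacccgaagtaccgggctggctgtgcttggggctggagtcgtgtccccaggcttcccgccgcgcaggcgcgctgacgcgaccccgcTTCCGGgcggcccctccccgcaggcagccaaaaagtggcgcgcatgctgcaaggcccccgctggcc

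Windows were held for 9 of the 10 enzymes, Dhodh being the exception. CACGTG, a palindrome, was present in 3 of them, at -7 from the start in Atic, -110 in Impdh2 and -203 in Paics, and in 8.09% of all genes with a window. CCGGAA, searched on both strands, was present in 4, at 34 in Gart, -16 in Ppat, -32 in Umps and -183 in Ctps, and in 16.7% of all genes. TGCGCA, part of the NRF1 motif and also a palindrome, was present in Ctps alone, at -8, and in 8.79% of all genes. Impdh1 and Ctps each had a further annotated start with its own window. The Ctps matches lay in the window chr4:120570227-120570526, and its other window, chr4:120569410-120569709, held none. These matches are descriptions of letters in a window. The annotated starts of Ppat and Paics lie on opposite strands of chromosome 5, 276 bases apart, with the first bases of each gene inside the other. Fragments from that stretch cannot be assigned to either gene without strand, and the strand setting of the counting is among what the sources used here do not give.

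The libraries held between 37014760 and 40591444 fragments assigned to genes, and each enzyme rested on 589 to 14524 fragments per library. The cell type label was not matched by the data: 11 of 12 macrophage markers averaged at least 1 FPKM (fragments scaled to gene length and library size). Of the 11 tested, 10 were lower in EXO, beside 24.7% of all genes tested. Of those 10, Itgam lost its call without EXO replicate 1 or LPS replicate 1 (-0.29 each). Csf1r, the receptor for colony-stimulating factor, was at 98.4 ± 13.8 FPKM in EXO against 333 ± 68.9 in LPS (SD, n = 4), and the Fc receptor Fcgr1 26 ± 2.58 and 71.3 ± 11.2. Ptprc, the leukocyte antigen CD45, averaged 37 ± 7.79 and 95.7 ± 9.22, and the Fc receptor chain Fcer1g 1059 ± 78.7 and 2152 ± 338. Of the lung epithelial markers only Ocln and Elf3 were analysed here, and their summed level was at most 0.0233 FPKM in any library. Of the listed markers, 4 of 7 fibroblast, 5 of 6 endothelial and 3 of 8 lymphocyte genes were analysed here. The sum of each of these lists stayed at or below 0.712 FPKM in every library. The neutrophil markers analysed, 4 of 6, summed to 4.06 to 7.13 in EXO and 5.48 to 11.6 in LPS. Among them Csf3r was lower in EXO and S100a8 was not called. The 12 macrophage markers summed to 5778 to 7346 in EXO, to 14312 to 21701 in LPS replicates 1 to 3 and to 10443 in LPS replicate 4, a sum of which Lyz2, the macrophage lysozyme, made up 56.1% to 68.8% in the LPS libraries. Marker by marker, LPS replicate 4 was the lowest LPS library for 8 of the 12, the highest for Fcgr1 (83.7 FPKM) and the second highest for Adgre1 (462), Ptprc (98.8) and Itgam (96.7). That library also stood nearest to EXO for most of the enzymes, so the calls of the enzymes and some other results are also given without it.

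All 10 enzymes were higher in EXO than in LPS. Each passed limma's test at an adjusted p under 0.05. Of the 9812 genes tested, 58.4% passed, 33.7% with EXO higher and 24.7% with EXO lower. EXO and LPS libraries overlapped for none of the 10, and 29.1% of all genes tested were likewise separate with EXO higher. The median log2 fold change of the enzymes was 1.06, beside 0.09 over all genes tested, and 7 of them reached 1, as 5.19% of all genes did. Without LPS replicate 4 all 10 were still called, from 0.34 for Paics to 1.83 for Gart, with a median of 1.15. A positive fold change means higher in EXO, measured as a difference of log2(FPKM + 1), which understates changes of low genes, and fewer cells of a type and less RNA per cell cannot be told apart in such bulk libraries.

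**Figure D1:**
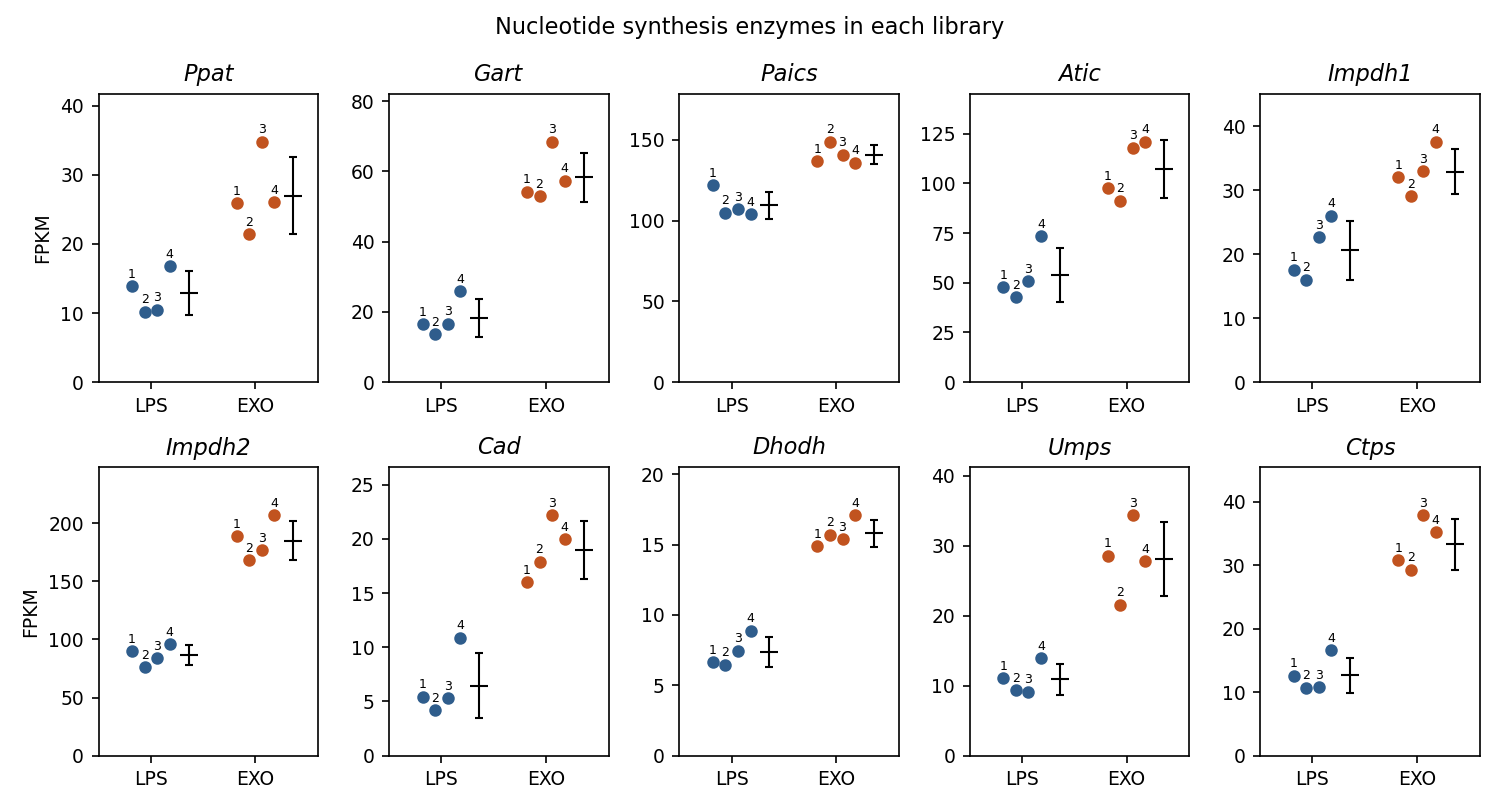
FPKM of each of the 10 enzymes in the 4 LPS and 4 EXO libraries, with replicate numbers above the points and the mean ± SD beside them. The groups are separate in every panel, and LPS replicate 4 is the highest LPS library in 9 of the 10, Paics being the exception.

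Purine synthesis begins with Ppat, the amidotransferase of the first committed step. It stood at 25.9, 21.4, 34.8 and 26 FPKM in EXO replicates 1 to 4 and at 13.9, 10.2, 10.5 and 16.8 in LPS replicates 1 to 4. EXO replicate 3 was the highest and EXO replicate 2 came nearest to the LPS libraries. The difference was 1.02 (SE 0.17, limma adjusted p = 1.80e-04), a 2.1-fold higher mean.

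Gart, a single protein that carries out several of the next steps, changed most of the 10. Its EXO libraries held 54.2, 53, 68.5 and 57.4 FPKM and its LPS libraries 16.5, 13.7, 16.7 and 26. Even the highest LPS library lay well below the lowest EXO library. The mean was 3.2-fold higher in EXO, with a log2 fold change of 1.66 (SE 0.17, limma adjusted p = 2.46e-06), or 1.83 without LPS replicate 4.

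Paics, which adds the carboxyl group and the aspartate to the growing ring, changed least. EXO libraries held 137, 149, 141 and 136 FPKM and LPS libraries 122, 105, 107 and 104. LPS replicate 1, not 4, was the highest of its group here, and its lowest EXO library still lay above it. In log2 terms Paics rose by 0.36 with an SE of 0.10, the 95% confidence interval running from 0.14 to 0.58 (limma adjusted p = 0.00808). The lowest value over the alternatives was 0.29, after median-of-ratios rescaling (limma adjusted p = 0.0341).

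Atic, a bifunctional enzyme, closes the ring to give IMP. Its EXO values were 97.5, 91.3, 118 and 121 FPKM and its LPS values 47.9, 42.9, 50.9 and 73.4. EXO replicates 3 and 4 lay above the other EXO libraries, and LPS replicate 4 above the other LPS libraries. The mean was 1.99-fold higher in EXO, and the 95% confidence interval of the log2 fold change ran from 0.66 to 1.33 (SE 0.16, limma adjusted p = 1.05e-04).

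IMP dehydrogenase, the rate-limiting enzyme on the way to guanine nucleotides, exists as the isozymes Impdh1 and Impdh2. Impdh2 held 189, 168, 177 and 207 FPKM in EXO and 90.2, 76, 83.9 and 96 in LPS, with little spread in either group. Impdh1 held 32, 29.1, 33 and 37.6 in EXO and 17.6, 16, 22.7 and 26 in LPS, and its lowest EXO and highest LPS libraries came close to each other. Impdh2 rose by 1.09 (SE 0.11, limma adjusted p = 2.93e-06) and Impdh1 by 0.67 (SE 0.15, limma adjusted p = 0.00132). RefSeq also annotates a pseudogene, Impdh2-ps, and it is not known here to which of them shared fragments went, so the level of Impdh2 is uncertain to that extent.

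Pyrimidine synthesis starts with Cad, a multifunctional protein that makes carbamoyl phosphate and turns it into dihydroorotate. EXO libraries held 16, 17.9, 22.2 and 20.0 FPKM and LPS libraries 5.43, 4.21, 5.29 and 10.9. LPS replicate 4 stood far above the other LPS libraries and was still below every EXO library. The log2 fold change was 1.49 (SE 0.22, limma adjusted p = 9.91e-05), and 1.74 (SE 0.13) without that library.

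Dhodh, the mitochondrial enzyme that oxidises dihydroorotate, had the lowest level of the 10 in EXO. Its libraries were tightly grouped, at 14.9, 15.7, 15.4 and 17.1 FPKM in EXO and 6.65, 6.48, 7.47 and 8.89 in LPS. Its mean was 2.14-fold higher in EXO and the difference 1.01 on the log2 scale (SE 0.12, limma adjusted p = 7.51e-06).

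Umps completes uridine monophosphate. It held 28.6, 21.6, 34.4 and 27.8 FPKM in EXO and 11.1, 9.38, 9.17 and 13.9 in LPS. As for Ppat, EXO replicate 3 was the highest and EXO replicate 2 the lowest of their group. The difference was 1.29 (SE 0.15, limma adjusted p = 9.20e-06).

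Ctps, CTP synthase, converts uridine to cytidine triphosphate. EXO libraries stood at 30.8, 29.3, 37.9 and 35.2 FPKM and LPS libraries at 12.6, 10.7, 10.8 and 16.6. The groups were far apart relative to their spread. The mean was 2.62-fold higher in EXO and the difference 1.34 on the log2 scale (SE 0.14, limma adjusted p = 3.50e-06).

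**Figure D2:**
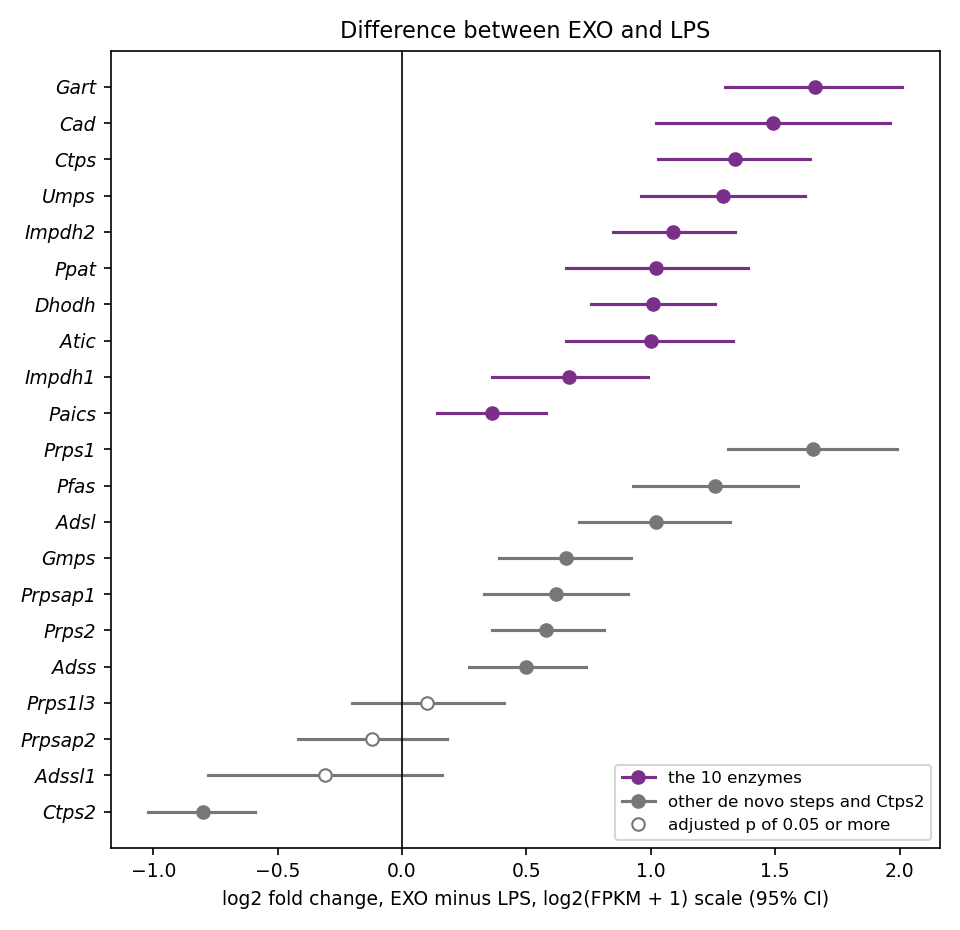
Log2 fold change, EXO minus LPS, with its 95% confidence interval, for the 10 enzymes, the other genes of de novo purine synthesis and Ctps2. Gart (1.66) and Prps1 (1.65) lie farthest to the right, Paics (0.36) is the lowest of the 10 enzymes, and Ctps2 (-0.80) is the only called gene left of 0.

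Among themselves the enzymes differed in level by more than they differed between the groups. By mean FPKM in EXO the order was Impdh2, Paics, Atic, Gart, Ctps, Impdh1, Umps, Ppat, Cad and Dhodh, from 185 down to 15.8. The ranges of neighbouring genes were separate down to Gart and Ctps and overlapped from Ctps downward. In LPS the order began with Paics at 109.6 and Impdh2 at 86.5, whose ranges did not overlap, and ended with Dhodh at 7.37 and Cad at 6.46, whose ranges did. Paics and Impdh2 thus stood in opposite order in the groups, with ranges apart in each.

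The libraries also differed within a group in a way the enzymes shared. EXO replicate 2 was the lowest EXO library for 7 of the 10 and LPS replicate 2 the lowest LPS library for 8. LPS replicate 4 lay from 17.9% (Impdh2) to 59% (Impdh1) of the way from the mean of the other LPS libraries to the EXO mean on the log2 scale for 9 enzymes, and on the far side for Paics (-28.8%). The summed level of the 10 was 596 to 685 FPKM in EXO and 344, 295, 324 and 392 in LPS replicates 1 to 4. The macrophage markers of LPS replicate 4 did not move as a whole with these values, being lowest of the LPS libraries for 8 of 12 and not for Fcgr1, Adgre1, Ptprc and Itgam, and their part in them was not tested.

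Ratios within a library do not depend on how libraries are scaled, and 3 were examined. The ratio of Impdh2 to Impdh1 was 5.38 to 5.89 in EXO and 5.12, 4.76, 3.7 and 3.69 in LPS replicates 1 to 4. Transcripts of Impdh2 thus exceeded those of Impdh1 by more in EXO, without overlap (difference 0.40 on the log2 scale, two-sided exact permutation p = 0.029, the smallest that 4 against 4 allows, and 0.0429 adjusted over the 3 ratios). LPS replicates 3 and 4 were well below replicates 1 and 2. The difference was 0.33 with replicate 3 alone left out and 0.33 with replicate 4 alone left out. Leaving out both together was not examined.

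The CTP synthase isozymes moved in opposite directions. Ctps2, the second CTP synthase, stood at 4.63, 4.5, 4.82 and 4.4 FPKM in EXO and 8.94, 8.41, 9.02 and 8.58 in LPS, and fell by 0.80 on the log2 scale (SE 0.10, limma adjusted p = 1.34e-05). The ratio of Ctps to Ctps2 was 6.5 to 8.01 in EXO and 1.2 to 1.94 in LPS (difference 2.34 on the log2 scale, exact permutation p = 0.029, adjusted 0.0429). The ratio of Ppat to Paics was 0.144 to 0.247 in EXO and 0.0973 to 0.162 in LPS. It overlapped between the groups, and its difference of 0.72 did not pass (exact permutation p = 0.057, adjusted 0.0571). The overlap lay between EXO replicate 2, at 0.144, and LPS replicate 4, at 0.162. The other EXO libraries were at 0.189 to 0.247 and the other LPS libraries at 0.0973 to 0.114. The difference was 0.85 without EXO replicate 2, 0.88 without LPS replicate 4 and 1.02 without both.

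**Figure D3:**
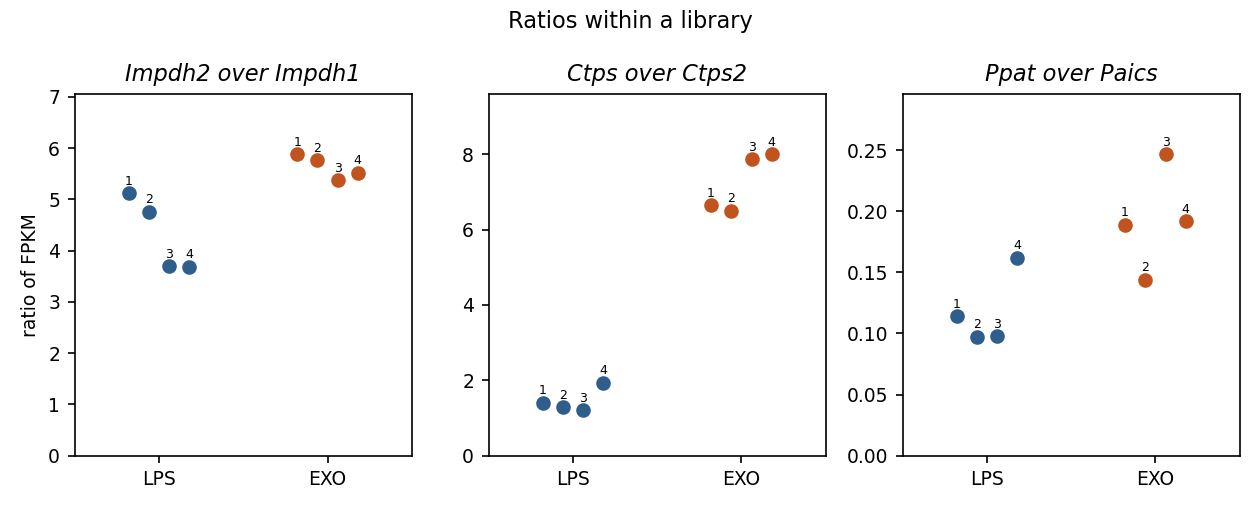
Ratio of FPKM within each library, LPS and EXO, for Impdh2 over Impdh1, Ctps over Ctps2 and Ppat over Paics, with replicate numbers above the points. The groups are separate in the first and second panels and overlap in the third, where EXO replicate 2 (0.144) lies below LPS replicate 4 (0.162).

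The remaining genes of de novo purine synthesis were higher or not called. Of 10 tested, 7 rose and none fell, with a median of 0.60, beside 33.7% higher and 24.7% lower among all genes tested. For these and the genes that follow, paired values are means ± SD in FPKM (n = 4), EXO before LPS. Prps1, which makes the activated ribose phosphate that Ppat uses, averaged 81 ± 2.62 FPKM in EXO and, in LPS, 25.9 ± 7.67, a difference of 1.65 on the log2 scale (limma adjusted p = 1.66e-06). Its relative Prps2 averaged 9.02 ± 0.586 and 5.69 ± 0.37 and the associated protein Prpsap1 27.3 ± 1.79 and 17.7 ± 3.47, and both rose. Prpsap2, at 17.9 ± 1.44 and 19.8 ± 4.16, and Prps1l3, a close copy of Prps1 whose fragments may be shared with it, at 15.2 ± 3.31 and 14 ± 1.84, were not called.

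Pfas and Adsl, enzymes of the middle of the route, averaged 12.7 ± 1.34 and 41.6 ± 5.21 in EXO and, in LPS, 4.83 ± 1.48 and 20.2 ± 4.32. On the branches from IMP, Gmps, which makes guanosine monophosphate, averaged 22.6 ± 3.21 and 13.9 ± 1.31, and Adss, listed in the table under that older symbol for Adss2, 111 ± 10.2 and 78 ± 4.96. All 4 rose. Adssl1, the muscle-type isozyme of Adss, averaged 24.3 ± 3.7 and 31.6 ± 11.3 and was not called (limma adjusted p = 0.234). Without LPS replicate 4 it was called lower (log2 fold change -0.51, limma adjusted p = 0.0158).

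Several genes of thymidylate synthesis and of ribonucleotide reductase rose as well. Besides Ctps2, the list of CTP and thymidylate synthesis held 5 genes, and all 5 rose, for a list median of 1.24. Among all genes tested, 33.7% were higher. Dut, which removes dUTP, averaged 66.1 ± 8.96 in EXO and 22.8 ± 3.22 in LPS. Tyms, thymidylate synthase, averaged 18.1 ± 1.41 and 7.11 ± 1.04, and Dtymk, thymidylate kinase, 171 ± 27.2 and 71.4 ± 8.73. The ribonucleotide reductase subunits Rrm1 and Rrm2, which make deoxynucleotides, averaged 93.3 ± 11.1 and 60.9 ± 9.03 in EXO and, in LPS, 50.3 ± 9.55 and 33.5 ± 6.32, and rose. Rrm2b, the subunit induced by p53, at 7.44 ± 1.02 and 6.52 ± 0.48, was not called.

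The folate enzymes that supply carbon units to the purine ring followed the same direction. Of 8 tested, 6 rose and none fell, with a median of 0.59, beside 33.7% higher and 24.7% lower among all genes tested. Shmt2 and Shmt1, serine hydroxymethyltransferases, averaged 194 ± 11.6 and 18.1 ± 3.7 in EXO and, in LPS, 74.8 ± 25.7 and 5.63 ± 1.98. Mthfd1, which makes the formyl donor used by Gart and Atic, averaged 23.6 ± 2.18 and 9.88 ± 2.49, and its mitochondrial relative Mthfd1l 32.9 ± 3.62 and 19.6 ± 3.31.

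Nucleotide kinases and salvage enzymes held genes of both directions. Among 15 kinases tested, 8 rose and 2 fell, with a median of 0.28, beside 33.7% higher and 24.7% lower among all genes tested. Nme4 and Nme1, nucleoside diphosphate kinases, averaged 47.1 ± 7.11 and 174 ± 34.2 in EXO and, in LPS, 20.6 ± 2.51 and 76.8 ± 24.1, the level of Nme1 being uncertain because Nme2 is a close copy beside it. Cmpk2, an interferon-induced mitochondrial kinase, averaged 0.247 ± 0.153 and 16.7 ± 3.98 and fell by 3.80 on the log2 scale, and Ak8, an adenylate kinase, 0.579 ± 0.0545 and 4.14 ± 1.09, and fell by 1.68. At such low EXO levels the size depends on the pseudocount of 1: with 0.1 the log2 fold changes were -5.68 and -2.60, and with voom on recovered fragments -6.27 and -2.79. Of 11 salvage genes tested, 4 rose and 3 fell, with a median of 0.23, beside 33.7% higher and 24.7% lower among all genes tested, so these counts are near the background. Uck2, uridine-cytidine kinase, averaged 85.8 ± 12.3 and 41.6 ± 8.54, Tk1, the S phase thymidine kinase, 77.1 ± 1.5 and 43.3 ± 12.5, and Adk, adenosine kinase, 18.2 ± 1.39 and 11.7 ± 0.987. Dck, deoxycytidine kinase, was at 15.1 ± 0.797 in EXO and 31.2 ± 1.93 in LPS and fell (limma adjusted p = 2.91e-06).

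Of 14 breakdown genes tested, 6 fell and 4 rose, with a median of -0.45, beside 24.7% lower and 33.7% higher among all genes tested. Cda and Gda, chosen after their values were seen, were below the filter and are outside this count. They averaged 2.35 and 0.625 FPKM in EXO and, in LPS, 0.318 and 0.148, without overlap. The other untested genes of the list analysed here overlapped between the groups. Samhd1, which hydrolyses deoxynucleotides, was at 40.2 ± 0.227 FPKM in EXO against 105 ± 5.96 in LPS, and fell by 1.36 on the log2 scale (SE 0.10, limma adjusted p = 1.38e-07). Xdh, which makes uric acid, averaged 8.49 ± 1.49 and 26.9 ± 4.88, and Pnp, purine nucleoside phosphorylase, 45.1 ± 4.78 and 116 ± 10. Pnp2, a near-identical copy of Pnp whose level is uncertain for that reason, averaged 1.08 ± 0.346 and 3.99 ± 0.832, and fell by 1.26 on the log2 scale (a log2 fold change of -1.92 with voom). Among 3 transporters tested, the concentrative Slc28a2, at 2.44 ± 0.61 and 7.33 ± 1.84, and the lysosomal Slc29a3, at 2.22 ± 0.357 and 4.3 ± 0.382, fell, while the equilibrative Slc29a1, at 21.8 ± 1.6 and 16.3 ± 2.21, rose.

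**Figure D4:**
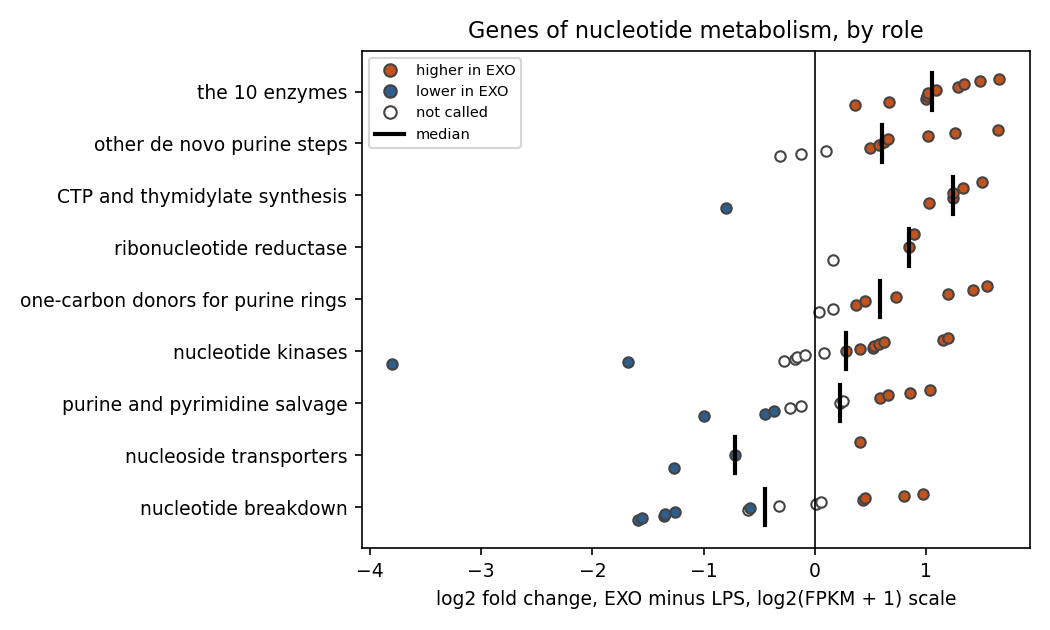
Log2 fold change, EXO minus LPS, of every tested gene in the 10 enzymes and in 8 lists of nucleotide metabolism, coloured by call, with the list median as a bar. Medians run from 1.24 for CTP and thymidylate synthesis to -0.45 for breakdown and -0.72 for the 3 transporters.

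Counted over the deposited pathway annotation and leaving the 10 enzymes out, 32 of 68 tested genes of the KEGG purine metabolism map rose and 14 fell, with a median of 0.20. For the pyrimidine metabolism map, 22 of 35 rose and 5 fell, with a median of 0.58. The purine map thus had 47.1% higher and 20.6% lower, and the pyrimidine map 62.9% and 14.3%. Among all genes tested, 33.7% were higher and 24.7% lower. Both maps include genes named above, and they were examined after the values had been seen.

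Genes of S phase moved with the enzymes. Of 14 tested, 12 rose and none fell, with a median of 0.95, beside 33.7% higher and 24.7% lower among all genes tested. The summed level of the S phase genes was 1005 to 1068 FPKM in EXO and 542 to 672 in LPS. Mcm7, Mcm5 and Mcm3, subunits of the replicative helicase, were at 83.5 ± 3.59, 72.2 ± 4.53 and 65.4 ± 8.02 in EXO and, in LPS, at 31.6 ± 3.85, 29.7 ± 6.23 and 27.9 ± 4.84, and the licensing factor Cdt1 57 ± 6.15 against 21.7 ± 3.04. The highest S phase sum among LPS libraries was in replicate 1, at 672, not in replicate 4, at 603. Pcna, chosen after its values were seen, made up 349 and 299.5 FPKM of these sums. By gene the order was mixed: Mcm7, Mcm5 and Cdt1 were highest of the LPS libraries in replicate 1, and Mcm3 in replicate 4. Myc, a transcription factor known to activate many nucleotide synthesis genes, stayed under the filter on low values, at 0.144, 0.393, 0.764 and 0.135 FPKM in EXO and 0.564, 0.236, 0.123 and 1.71 in LPS. The part of S phase genes and of macrophage markers in the difference of the enzymes was not tested.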

How the data were processed

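Total RNA came from TRIzol extraction and libraries from a VAHTS Universal V6 kit, as the labels' protocols state. HISAT2 and build GRCm39 (mm39) are named in the submitters' processing notes. Counter, strand setting and annotation: not given in the sources used here. Before deposit the authors scaled fragments per gene to gene length and library size (FPKM), which is read from the deposited values, since the header names no unit. They sum to 544225 to 621034 per library and step by whole fragments.

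For all 17645 detected genes the steps gave whole fragments, taken as the smallest whole numbers that fit, with a distance of at most 0.00062 from a whole number (0.01 accepted). These gave the depth and an alternative test.

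Genes with at least 1 FPKM in at least 4 libraries (9812) were tested on log2(FPKM + 1) with limma 3.58.1 (R 4.3.3, trend, robust), two-sided, with Benjamini-Hochberg adjustment over all genes tested and a threshold of 0.05. Ratios were compared by exact permutation in scipy 1.17.1. The fit was also run on simulated data, whose outcome is not given here and from which no conclusion is drawn.

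The named genes are the 10 enzymes, the other de novo purine genes, Ctps2, Myc and, from each further list, the up to 4 tested genes with the smallest p; Lyz2, Adgre1 and Itgam were chosen after their values were seen. A gene this rule names is not reported here. Members and lists were chosen with earlier results of these data known. List entries without a value in the text are not analysed here or are counted only.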

Additional observations from a re-analysis of the deposited data

Results flagged for a closer look

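Among 128 groups of 4 libraries examined, 9 held a library far from the other 3 by Dixon's criterion, which chance alone meets in about 1 group in 20. One enzyme was among them: Paics in LPS replicate 1 stood at 122 FPKM, the other LPS libraries at 104 to 107. In LPS replicate 4, Adsl stood at 26.7 FPKM (others 17.6 to 18.8) and Slc28a2 at 10.1 (others 6.21 to 6.74). In LPS replicate 2, Nme4 stood at 16.8 (others 21.6 to 22.1) and Pnp2 at 5.23 (others 3.49 to 3.7). Slc29a3 in LPS replicate 3 was at 4.87 (others 4.09 to 4.12). In EXO replicate 2, the macrophage marker Adgre1 stood at 221 (others 89.3 to 103). Also in the EXO group, Prpsap2 in replicate 2 was at 15.8 (others 18.4 to 18.9) and Rrm2 in replicate 3 at 74.3 (others 55.1 to 58.1).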

How the results depend on the processing

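The 16 alternatives were a pseudocount of 0.1, no filter, a mean of at least 5 FPKM, median-of-ratios and common-sum rescaling, voom on recovered fragments, the replicate number as a block, each library left out, and EXO replicate 2 and LPS replicate 4 left out together. All 160 values of the 10 enzymes kept their direction and their call. Gart ranged from 1.54 to 1.88 and Paics from 0.29 to 0.41. Among 794 values of the other genes of the naming rule and of Lyz2, Adgre1 and Itgam, the sign turned for Prps1l3 without EXO replicate 3 (-0.03, leaving out other single libraries giving up to 0.19) and for Prpsap2 and S100a8 without EXO replicate 2 and LPS replicate 4 together (0.05 and -0.02), none of them called, and Adssl1 became called in 2 settings that left out LPS replicate 4 (-0.51 and -0.58). Itgam lost its call without a filter (-0.39), without EXO replicate 1 and without LPS replicate 1 (-0.29 each). The cause was not tested.

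With the replicate number as a block, Gart stood at 1.66 and Paics at 0.36, 3253 genes were called higher and 2339 lower, and all 10 enzymes were called. Same-numbered libraries did not deviate together throughout (correlations from -0.292 to 0.17), so the numbers were not taken as pairs. The recovered depth of each enzyme was at least 589 fragments per library, and its effect on these comparisons was not tested.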

Other observations

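Some genes of the same pathways fell below the filter on low values and have no test. Chosen after their values were seen, Cda, cytidine deaminase, stood at 3.29, 0.967, 2.75 and 2.4 FPKM in EXO and at 0.38, 0.0543, 0.484 and 0.354 in LPS replicates 1 to 4, without overlap. Upp1, uridine phosphorylase, held 0.232 to 0.821 in EXO and 0 to 0.159 in LPS. Aldh1l2, a mitochondrial folate dehydrogenase that was tested and not called, stood at 2.04, 2.49, 4.91 and 9.96 FPKM in LPS replicates 1 to 4 and at 3.43 to 5.59 in EXO. Hprt, the main purine salvage enzyme, averaged 356 ± 18 in EXO and 303 ± 14.9 in LPS, did not overlap between the groups and was not called (limma adjusted p = 0.062).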
